A study of Mus musculus with 6 samples.

Results

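The comparison described here set T cells cultured with both ligands, B7-2 and BTNL2, against T cells that received the T cell receptor signal alone. Its members were chosen by label: the 2 arrays of the group coated with anti-CD3, B7-2 and BTNL2 and the 2 arrays of the group coated with anti-CD3, which is 4 of the 6 arrays of the series, over the 17097 genes tested. The cells were CD4+CD25- T cells of female C57BL/6 mice, taken from spleen by the protocol and from spleen and lymph nodes by another label. Wells of 12 well plates were coated with 2 µg/ml of the anti-CD3 antibody 2C11 in all groups. The anti-CD3 wells carried control IgG besides, the B7-2 wells 3 µg/ml of rB7-2.Fc and control IgG, and the BTNL2 wells the same B7-2 protein and 11 µg/ml of rBTNL2.Fc, both being recombinant proteins named as Fc forms. Every well was set up with the same number of cells, 0.36 ng/ml of human TGF-beta and 10 ng/ml of mouse IL-2, and culture lasted 4 days. The 2 cultures of a group are duplicates, and nothing states that they came from separate animals, so p-values measure only the spread between cultures, which may be technical. No wells had BTNL2 without B7-2, so the action of BTNL2 in the absence of B7-2 was not measured. The values of the B7-2 wells stand beside the net difference and show how much of it was already present with B7-2; both comparisons share the anti-CD3 controls.

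B7-2 (CD86) is a ligand of CD28, the receptor that supplies the costimulatory signal to a T cell whose receptor has been engaged, and of CTLA-4, which opposes it. BTNL2 is a butyrophilin-like member of the same extended family of surface proteins and is known as an inhibitor of T cell activation. TGF-beta together with IL-2 in culture favours expression of Foxp3, the transcription factor that defines regulatory T cells, in CD4 T cells that lacked it. Anti-CD3 bound to plastic stands in for antigen by crosslinking the receptor complex.

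Expression was read as RMA probe set intensity, a linear scale with array medians of 18.4 to 18.8. The log2 values of duplicate arrays correlated across all genes at r = 0.997 to 0.998, and the anti-CD3 and BTNL2 arrays at 0.974 to 0.978; genes are not independent replicates. None of the 12 measured CD4 T cell markers lay at or below the array medians on all 4 arrays, but 6 of them were called lower in the BTNL2 wells and 2 higher, where 16.2% and 14.2% of all genes were. Cd4 itself read 1705 and 1557 in the anti-CD3 wells, 1407 and 1319.8 in the B7-2 wells and 1103 and 1159 in the BTNL2 wells and fell 1.44-fold. The 12 markers summed to 27338 to 27783 in the anti-CD3 wells, 22821 to 22969 in the B7-2 wells and 23037 to 23070.4 in the BTNL2 wells. Markers listed for other cells also gave signal, and whether it came from such cells was not tested. The markers listed for B cells summed to 5903 to 6601 in the anti-CD3 wells and 4308 to 5261 in the BTNL2 wells, with 3 of 17 higher and 5 lower. Markers of macrophages and monocytes summed to 423 to 437 and 366 to 384, with 12 of 18 at or below the array medians, among them Adgre1 and Itgam. Of the granulocyte and mast cell markers, 16 of 18 stayed at or below the medians, of the stromal and endothelial markers 9 of 13, of the dendritic cell markers 5 of 10 and of the erythroid and platelet markers 6 of 10. Each of these 4 lists had at most 2 members called in a direction, but their sums moved. The dendritic cell markers summed to 3661 to 4082 in the anti-CD3 wells and 1327 to 1752 in the BTNL2 wells, where H2-Ab1 and Batf3 fell. H2-Ab1 stands on the B cell list too, and Batf3 on the list of T cell lineage factors. Batf3 read 1228 and 1191 in the anti-CD3 wells against 309 and 379 in the BTNL2 wells. The granulocyte and mast cell markers went from 385 to 410.2 down to 170.1 to 177, most of it from the stefin gene Stfa2l1 at 187 and 209 in the anti-CD3 wells against 6.25 and 7.29 in the BTNL2 wells. The stromal and endothelial markers summed to 271 to 275 and 174 to 176, and the erythroid and platelet markers to 197 to 204 and 290 to 448, the latter with Car2, a carbonic anhydrase gene, at 71.1 and 76.8 in the anti-CD3 wells against 325 and 179 in the BTNL2 wells. In bulk RNA, fewer cells of a type and less RNA per cell cannot be told apart. The 18S probe set read 1308 and 683 on the anti-CD3 arrays against 1665 and 1798 on the BTNL2 arrays, while the 3′ to 5′ ratio of Gapdh probe sets was 1.37 and 1.27 against 1.40 and 1.43; the part of such differences in the results was not tested.

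The net difference was broad. With limma and Benjamini-Hochberg adjustment over all genes, 5197 of 17097 genes (30.4%) passed an adjusted p of 0.05: 2422 (14.2%) were higher in the BTNL2 wells and 2775 (16.2%) lower. Among large changes the lower genes were more numerous, with 393 higher and 829 lower at 2-fold or more, 80 and 179 at 4-fold, and 31 and 53 at 8-fold, while 15 rose and 13 fell at least 16-fold. The median over all genes was -0.0046 on the log2 scale. For every called gene both arrays of a group lay on the same side of both arrays of the other group, and the smallest fold called was 1.20. Over all genes tested, both BTNL2 arrays lay above both anti-CD3 arrays in 30.8% and below both in 32.2%. Such separation is therefore common with 2 arrays a side and adds no support of its own. Genes are called risen or fallen only where they passed the limma test at that adjusted p. The sign ± is limma's standard error of the log2 change, and each group has 2 arrays.

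The genes that rose most were led by chemokines, a cytokine, a T-box transcription factor and interferon-induced genes. Xcl1, which encodes lymphotactin, a chemokine that attracts cross-presenting dendritic cells, read 10.4 and 11.4 in the anti-CD3 wells, 7.59 and 6.01 in the B7-2 wells and 1782 and 1363 in the BTNL2 wells. The BTNL2 arrays stood far above the other 4, which lay below the array medians, and the rise was 143-fold (log2 change 7.16 ± 0.16, adjusted p = 3.44e-06). Ccl1, a ligand of CCR8, read 19.02 and 29.9 in the anti-CD3 wells, 26.7 and 27.1 in the B7-2 wells and 2886 and 2261 in the BTNL2 wells and rose 107-fold (log2 change 6.74 ± 0.21, adjusted p = 6.24e-06). Il9, the cytokine of Th9 cells and mast cell growth, read 20.4 and 19.3 in the anti-CD3 wells, 319 and 307 in the B7-2 wells and 2542 and 1557 in the BTNL2 wells, and the rise was 100.3-fold (log2 change 6.65 ± 0.21, adjusted p = 6.24e-06). Eomes, the T-box factor of memory and cytotoxic T cells, read 21.1 and 17.7 in the anti-CD3 wells, 19.98 and 16.3 in the B7-2 wells and 1337 and 991 in the BTNL2 wells and rose 59.7-fold (log2 change 5.90 ± 0.18, adjusted p = 6.24e-06). For Xcl1, Ccl1 and Eomes the B7-2 arrays were no brighter than the brighter anti-CD3 array. Cdh1, which encodes the adhesion protein E-cadherin, read 4.95 and 5.04 in the anti-CD3 wells against 233 and 102 in the BTNL2 wells. Its anti-CD3 values lay under the brightest nonspecific control probe set, 5.27, so only a bound against that level can be given: Cdh1 was at least 29.2-fold higher in the BTNL2 wells, and at least 19.3-fold without the first and 44.2-fold without the second BTNL2 array. Among the 15 largest fitted rises were also Trgv1, a variable segment of the gamma chain of the T cell receptor (5.004 on the log2 scale), Lad1, which encodes the anchoring filament protein ladinin (4.69), and Drc1, a gene of the dynein regulatory complex of cilia (4.26). With 16 added to each intensity before log2, which shrinks changes of dim genes, the log2 change was 5.87 for Xcl1, 6.003 for Ccl1, 5.81 for Il9, 5.05 for Eomes, 4.29 for Trgv1 and 3.19 for Drc1.

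**Figure D1:**
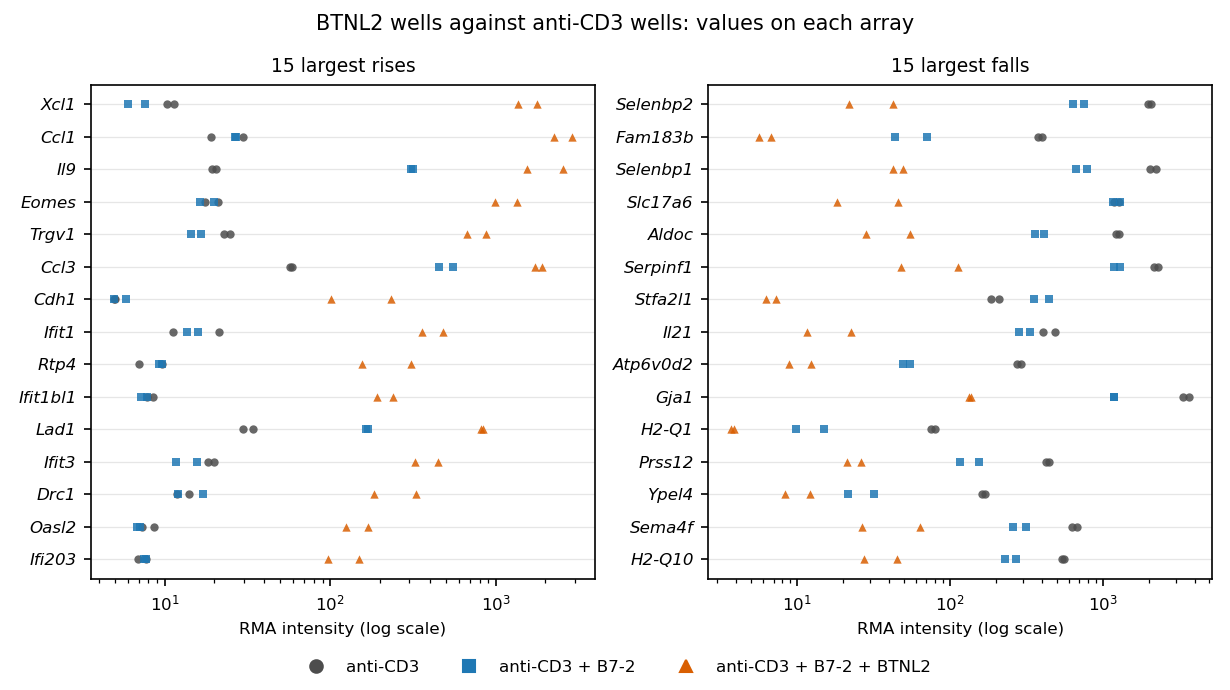
Intensity on each of the 6 arrays (log axis) for the 15 genes with the largest rises and the 15 with the largest falls among called genes in the BTNL2 wells against the anti-CD3 wells. Left out were predicted genes, clones and unnamed cDNAs, and genes not above the median probe set in their higher group. Each point is 1 array. Xcl1 lies at 10.4 and 11.4 in the anti-CD3 wells and at 1782 and 1363 in the BTNL2 wells, and Selenbp2 at 2073 and 1984 against 21.9 and 42.3.

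The largest falls included a pair of selenium-binding protein genes, a connexin and a follicular helper cytokine. Selenbp2 read 2073 and 1984 in the anti-CD3 wells, 756 and 635 in the B7-2 wells and 21.9 and 42.3 in the BTNL2 wells. The BTNL2 arrays were lowest and the B7-2 arrays intermediate, and the fall was 66.7-fold (log2 change -6.06 ± 0.28, adjusted p = 2.00e-05). Its near-identical copy Selenbp1 fell 46.9-fold, and probes may not separate the pair. Gja1, which encodes the gap junction protein connexin 43, read 3681 and 3347 in the anti-CD3 wells, 1189 and 1183 in the B7-2 wells and 132 and 138 in the BTNL2 wells and fell 25.9-fold (log2 change -4.70 ± 0.091, adjusted p = 3.41e-06). Il21, the cytokine by which follicular helper cells act on B cells, read 406 and 485 in the anti-CD3 wells, 333 and 282 in the B7-2 wells and 11.7 and 22.6 in the BTNL2 wells and fell 27.4-fold (log2 change -4.77 ± 0.28, adjusted p = 5.35e-05). Serpinf1, which encodes the anti-angiogenic factor PEDF, fell by 4.93 on the log2 scale, and Slc17a6, a vesicular glutamate transporter gene, by 5.41. Atp6v0d2, a proton pump subunit gene, read 292 and 273 in the anti-CD3 wells against 12.4 and 8.90 in the BTNL2 wells and fell 26.9-fold. Of the MHC class Ib genes H2-Q10 fell 15.6-fold, and H2-Q1, at 79.3 and 75.4 in the anti-CD3 wells against 3.87 and 3.70 in the BTNL2 wells, was under the level of the nonspecific control probe sets in the latter and so at least 14.7-fold lower; their family shares sequence, so the split between members is uncertain. On the linear scale the largest falls were Gja1, Basp1, which encodes a membrane protein of growing axons (4027 and 3660.4 in the anti-CD3 wells against 361 and 414 in the BTNL2 wells), Slc2a3, Anxa2, a calcium-dependent membrane-binding annexin (4698 and 4979 in the anti-CD3 wells against 1079 and 1522 in the BTNL2 wells), and Ero1a. With the mean of each gene's probe sets in place of the brightest, the log2 change was -3.73 for Gja1, -3.96 for Il21, -3.91 for Serpinf1 and -4.45 for Slc17a6. Adding 16 to the intensities before log2 shrank the log2 change to -5.44 for Selenbp2, -3.82 for Il21, -4.76 for Slc17a6 and -3.49 for Atp6v0d2. The log2 change of Serpinf1 was -4.31 without the first BTNL2 array and -5.54 without the second BTNL2 array and the log2 change of Slc17a6 was -4.76 without the first BTNL2 array and -6.07 without the second BTNL2 array.

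Against the shares of 14.2% and 16.2% for all genes, the gene lists differed widely. Ribosome biogenesis, DNA replication, chemokine, cytotoxic granule, interferon-stimulated and Th1 genes were called higher in 62.5% to 88.9% of their measured members. Cholesterol synthesis, glycolysis and hypoxia, follicular helper and FOXO-dependent genes were called lower in 57.1% to 72.2%. Of the 21 cytosolic ribosomal protein genes 0 were called in either direction by limma, with a median of -0.066; at an unadjusted p of 0.05, 0 of the 21 passed. In the B7-2 wells against the same anti-CD3 arrays, 11.2% of all genes were called higher and 13.3% lower. These lists were read by their counts and medians alone, with no set test. They were chosen with earlier results of these data known, so their shares are descriptions and no independent support.

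**Figure D2:**
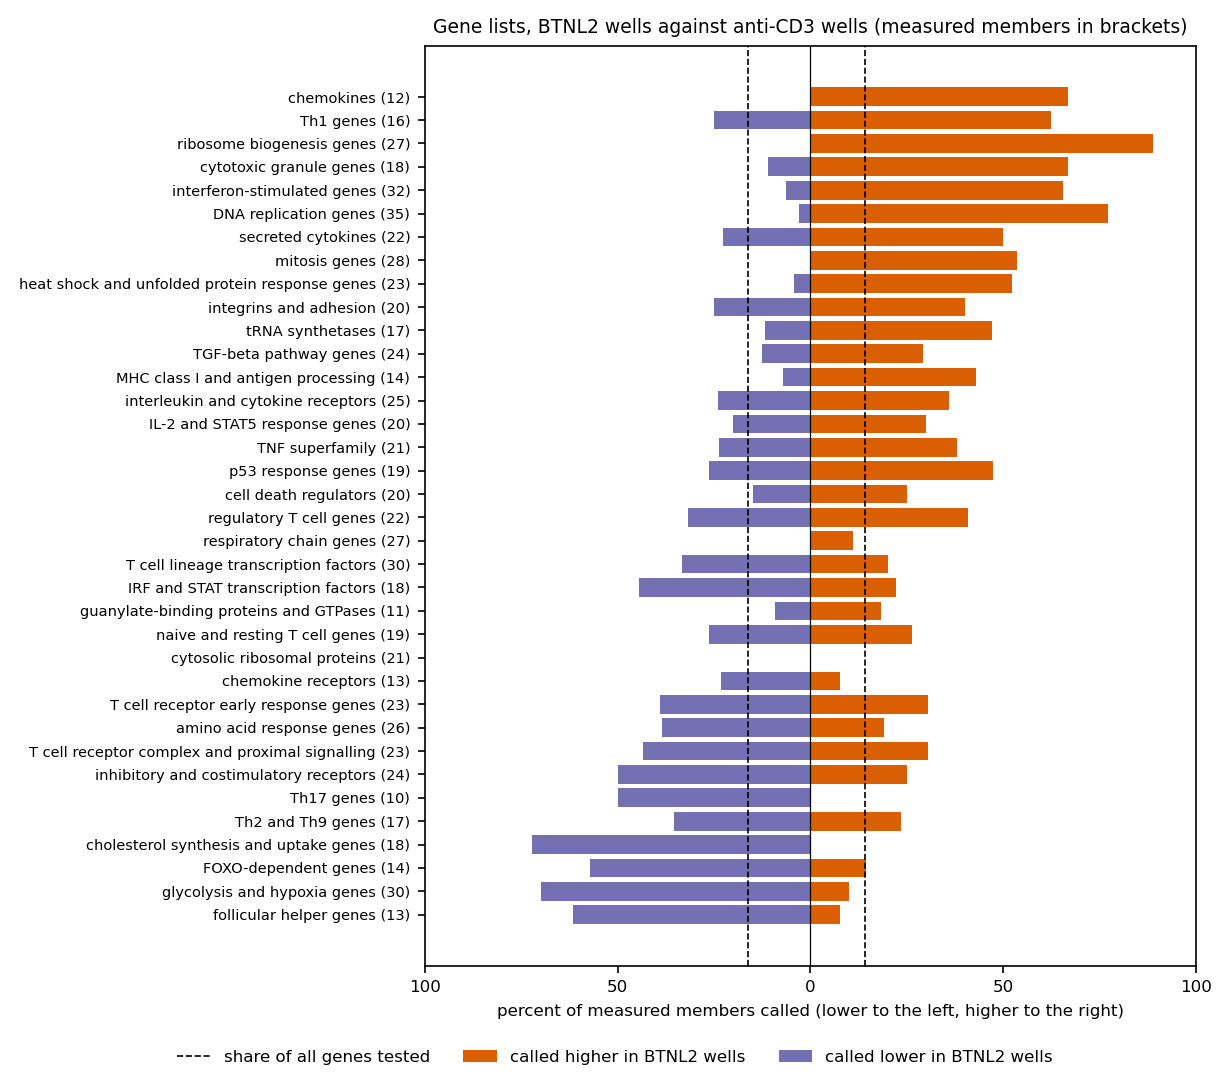
Percent of the measured members of each gene list called higher (right) and lower (left) in the BTNL2 wells against the anti-CD3 wells, ordered by the list's median log2 change, with the number of measured members in brackets. Dashed lines mark the shares of all 17097 genes, 14.2% higher and 16.2% lower. Ribosome biogenesis genes reach 88.9% higher and cholesterol genes 72.2% lower. The lists were chosen with earlier results of these data known.

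Of 12 measured chemokine genes 8 rose and 0 fell by limma's test, with a median log2 change of 1.35; at an unadjusted p of 0.05, 0 were lower. Beyond Xcl1 and Ccl1, Ccl3, an inflammatory chemokine gene, read 58.6 and 57.1 in the anti-CD3 wells, 457 and 555 in the B7-2 wells and 1913 and 1719 in the BTNL2 wells, an increase of 31.3-fold (log2 change 4.97 ± 0.12, adjusted p = 3.79e-06). The B7-2 arrays lay between the other groups for Ccl3. Ccl4, another inflammatory chemokine gene, rose 2.29-fold, and the CCR4 ligands Ccl17 and Ccl22 3.62-fold and 2.01-fold. Cxcl10, the interferon-induced ligand of CXCR3, read 22.97 and 18.5 in the anti-CD3 wells against 64.3 and 53.01 in the BTNL2 wells and rose 2.83-fold. Of the 13 measured receptor genes Cxcr6 rose, 2.56-fold, and Ccr4, the receptor of Ccl17 and Ccl22, read 132 and 145 in the anti-CD3 wells against 58.9 and 75.1 in the BTNL2 wells and fell 2.08-fold. The leukotriene B4 receptor gene Ltb4r1 fell 1.55-fold. Cxcr5, which guides follicular helper cells into B cell follicles, fell 1.85-fold, a call lost without either anti-CD3 array or without the first BTNL2 array (adjusted p up to 0.0962).

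Secreted cytokine genes went both ways, with 11 of 22 higher and 5 lower. Ifng, the Th1 cytokine that activates macrophages, read 242 and 286 in the anti-CD3 wells, 1295 and 1216 in the B7-2 wells and 2899.6 and 2529.6 in the BTNL2 wells; all 3 groups were separate, and the rise over the anti-CD3 wells was 10.3-fold (log2 change 3.37 ± 0.12, adjusted p = 8.70e-06). Csf2, which encodes the myeloid growth factor GM-CSF, read 25.8 and 31.9 in the anti-CD3 wells, 136 and 143 in the B7-2 wells and 311 and 276 in the BTNL2 wells and rose 10.2-fold (log2 change 3.35 ± 0.13, adjusted p = 1.11e-05). Il3, another myeloid growth factor gene, rose 6.22-fold, Lta, which encodes lymphotoxin alpha, 5.09-fold, and Tnf 2.52-fold. Il10, an inhibitory cytokine of T cells, read 94.2 and 79.2 in the anti-CD3 wells, 617 and 654 in the B7-2 wells and 210.3 and 289 in the BTNL2 wells. Its BTNL2 arrays lay above the anti-CD3 arrays by 2.85-fold (log2 change 1.51 ± 0.16, adjusted p = 5.77e-04) but below the B7-2 arrays. Il5, the eosinophil growth factor gene, was at 28.9 and 33.7 in the anti-CD3 wells, 472 and 456 in the B7-2 wells and 21.9 and 37.3 in the BTNL2 wells, so that the anti-CD3 and BTNL2 arrays overlapped while the B7-2 arrays were high (BTNL2 against anti-CD3: log2 change -0.13, adjusted p = 0.737). Without the first BTNL2 array the log2 change of Il5 turned to 0.26, and without the second it was -0.51 and passed (adjusted p = 0.0378). Il2 stayed dim, at 15.8 and 10.99 in the anti-CD3 wells against 19.1 and 24.4 in the BTNL2 wells, and its rise of 1.64-fold was lost when the second anti-CD3 array or either BTNL2 array was left out, or 16 added before log2 (highest adjusted p = 0.209). Among the falls, Csf1, which encodes the growth factor of macrophages, read 284 and 286 in the anti-CD3 wells against 52.1 and 57.8 in the BTNL2 wells and fell 5.19-fold. Tgfb3, a TGF-beta gene, read 118 and 136 in the anti-CD3 wells, 26.1 and 11.1 in the B7-2 wells and 7.62 and 9.48 in the BTNL2 wells and fell 14.9-fold (log2 change -3.90 ± 0.35, adjusted p = 2.69e-04). After 16 was added to each intensity, the log2 change was 1.31 for Il3 and -2.54 for Tgfb3.

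Cytokine receptor genes also split, 9 of 25 higher and 6 lower. Both chains of the receptor for IL-18, a cytokine that drives interferon gamma release, rose: Il18r1 read 51.01 and 56.03 in the anti-CD3 wells against 468 and 278 in the BTNL2 wells, up 6.75-fold, and Il18rap 45.1 and 33.4 in the anti-CD3 wells against 315 and 249.6 in the BTNL2 wells, up 7.22-fold. Il10ra, the ligand-binding chain of the IL-10 receptor, rose 2.88-fold. Il2ra, which encodes CD25, the high-affinity chain of the IL-2 receptor, read 4265 and 4141 in the anti-CD3 wells, 4477 and 4570.1 in the B7-2 wells and 4077 and 4042 in the BTNL2 wells and did not pass (log2 change -0.05, adjusted p = 0.718), although the mean of its probe sets did, at -0.33 (adjusted p = 0.0227). Il1r2, a decoy receptor for IL-1, read 249 and 225 in the anti-CD3 wells, 99.7 and 103 in the B7-2 wells and 26.1 and 28.2 in the BTNL2 wells and fell 8.74-fold (log2 change -3.13 ± 0.10, adjusted p = 6.24e-06). Il12rb2, the signalling chain for IL-12, fell 2.28-fold, and Il4ra, the receptor chain for IL-4 and IL-13, 1.97-fold. Of 20 response genes of IL-2 and STAT5, 6 rose (30%) and 4 fell (20%), with Lta the furthest above. The shares of all genes were 14.2% and 16.2%, so the share that fell was near that of all genes.

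By helper lineage, Th1 list members were higher in 10 of 16 and lower in 4, with a median log2 change of 0.84. The rises were of effector products and receptors, among them Ifng, Ccl3, Il18r1 and Il18rap and Havcr2, which encodes the inhibitory receptor TIM-3 (5.22-fold). Hlx, a homeobox gene of Th1 cells, fell 2.17-fold. Tbx21, which encodes the Th1 master regulator T-bet, read 552 and 702 in the anti-CD3 wells against 389 and 493 in the BTNL2 wells; its log2 change of -0.51 passed with an adjusted p of 0.0495, and the call was lost without the second anti-CD3 or the first BTNL2 array, with only these 4 arrays in the fit, with median centring, with a robust variance prior and with each probe set tested (adjusted p up to 0.246). In the Th2 and Th9 list 4 of 17 rose and 6 fell; Il9 and Il13, the latter up 1.78-fold, stood beside a fall of Il24 by 0.92 on the log2 scale. The Th2 regulator gene Gata3 read 894 and 913 in the anti-CD3 wells, 887 and 905 in the B7-2 wells and 695 and 789 in the BTNL2 wells and did not pass (adjusted p = 0.0632). It was called lower with a variance prior that follows intensity, with dim genes left out, with 16 added before log2 and without the second BTNL2 array (adjusted p = 0.006, 0.0381, 0.0216 and 0.0465). Of 10 Th17 genes 0 rose and 5 fell by limma's test (3 were higher at an unadjusted p of 0.05), with Il21 the furthest below, and Il17a was dim, at 5.50 and 5.10 in the anti-CD3 wells against 6.53 and 6.68 in the BTNL2 wells, and was called higher with the mean of its probe sets alone among the alternatives (log2 change 0.32, adjusted p = 0.0496).

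Follicular helper genes were mostly lower, 8 of 13, with 1 higher and a median log2 change of -0.81. Bcl6, the transcriptional repressor that defines the lineage, read 484 and 462 in the anti-CD3 wells, 82.9 and 90.2 in the B7-2 wells and 191 and 141 in the BTNL2 wells. The BTNL2 arrays were below the anti-CD3 arrays, by 2.88-fold (log2 change -1.53 ± 0.15, adjusted p = 3.54e-04), and above the B7-2 arrays. Btla, an inhibitory receptor of these cells, read 1459 and 1537 in the anti-CD3 wells, 1121 and 1066 in the B7-2 wells and 424 and 375 in the BTNL2 wells and fell 3.76-fold (log2 change -1.91 ± 0.10, adjusted p = 3.09e-05). Cd200 fell 2.33-fold, Pou2af1, a coactivator of octamer-binding factors, 1.87-fold, and Sh2d1a, which encodes the adaptor SAP, 1.75-fold. The members called in this list also include Il21 and Cxcr5 above. Averaging the probe sets of a gene gave a log2 change of -0.88 for Bcl6.

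Regulatory T cell genes did not move together: 9 of 22 rose and 7 fell, with a median of 0.058. Foxp3 read 78.8 and 96.4 in the anti-CD3 wells, 70.3 and 77.5 in the B7-2 wells and 299.5 and 306 in the BTNL2 wells. Both BTNL2 arrays stood above the other 4, and the rise was 3.47-fold (log2 change 1.80 ± 0.12, adjusted p = 7.92e-05). Ikzf2, which encodes Helios, a factor of regulatory T cells, read 24.03 and 28.3 in the anti-CD3 wells, 63.95 and 61.1 in the B7-2 wells and 225 and 121 in the BTNL2 wells and rose 6.34-fold (log2 change 2.66 ± 0.26, adjusted p = 3.87e-04). Nrp1, which encodes the surface protein neuropilin 1, rose 1.80-fold, and Penk, the proenkephalin gene, 2.18-fold. Ctla4, the inhibitory receptor that regulatory T cells carry in quantity, moved the other way. It read 1105 and 1082 in the anti-CD3 wells, 1572 and 1798 in the B7-2 wells and 532 and 540.2 in the BTNL2 wells, lowest in the BTNL2 wells and highest in the B7-2 wells, and fell 2.04-fold (log2 change -1.03 ± 0.10, adjusted p = 3.26e-04) against anti-CD3 alone. Izumo1r, which encodes folate receptor 4, fell 1.90-fold, and Tnfrsf9, which encodes the costimulatory receptor 4-1BB, 1.59-fold. The mean over probe sets, in place of the brightest, put the log2 change at 1.61 for Ikzf2.

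**Figure D3:**
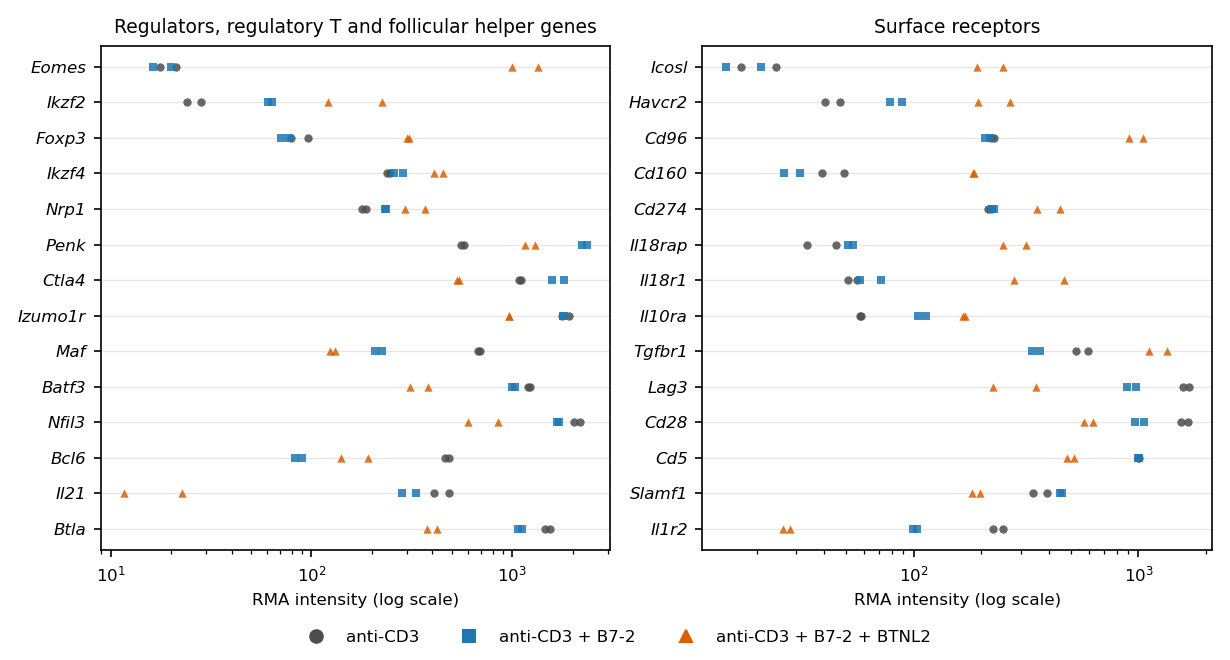
Intensity on each array (log axis) for regulators, regulatory T cell and follicular helper genes (left) and surface receptors (right); each point is 1 of 2 arrays per group. Foxp3 is higher in the BTNL2 wells than on the other 4 arrays and Ctla4 lower, while Bcl6 lies between the anti-CD3 and B7-2 wells.

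Of 30 transcription factors of T cell lineages 6 rose and 10 fell. Maf, a factor of Th2 and follicular helper cells and of Il10 and Il21 transcription, read 675 and 691 in the anti-CD3 wells, 223 and 208 in the B7-2 wells and 124 and 131 in the BTNL2 wells and fell 5.36-fold (log2 change -2.42 ± 0.089, adjusted p = 9.36e-06). The basic leucine zipper factors Batf3 and Nfil3, the latter a factor of innate lymphoid cells, fell 3.54-fold and 2.94-fold. Bhlhe40, a repressor of Il10, fell 1.60-fold. Against these, Eomes and Ikzf2 rose. Prdm1, which encodes the repressor Blimp-1, did not pass (log2 change 0.10, adjusted p = 0.533).

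Genes of cytotoxic granules rose in 12 of 18 members and fell in 2, with a median log2 change of 0.64; without the first anti-CD3 array 6 were called higher. Gzma, a granzyme gene, read 1549.97 and 1727 in the anti-CD3 wells, 1869 and 1900.4 in the B7-2 wells and 4828 and 5411 in the BTNL2 wells and rose 3.12-fold (log2 change 1.64 ± 0.10, adjusted p = 6.16e-05). Gzmc read 322 and 419 in the anti-CD3 wells, 252 and 239.7 in the B7-2 wells and 2189.7 and 2644 in the BTNL2 wells and rose 6.55-fold (log2 change 2.71 ± 0.15, adjusted p = 4.07e-05); it belongs to a tandem family of similar granzymes whose probes may cross-hybridise. Fasl, the death ligand of killer cells, read 68.3 and 74.1 in the anti-CD3 wells against 333 and 337 in the BTNL2 wells and rose 4.71-fold. Serpinb9, an inhibitor of granzyme B that protects the killer cell, rose 3.87-fold. Markers of CD8 T and NK cells moved with this list: 8 of 13 rose and 0 fell by limma's test, and their summed intensity was 769 to 832 in the anti-CD3 wells, 399.8 to 416 in the B7-2 wells and 2994 to 3443 in the BTNL2 wells. At an unadjusted p of 0.05, 1 of the 13 was lower. Cd8a read 302 and 321 in the anti-CD3 wells, 119 and 107 in the B7-2 wells and 987 and 924 in the BTNL2 wells and rose 3.07-fold (log2 change 1.62 ± 0.10, adjusted p = 5.82e-05), whereas Cd8b1, the partner chain of the CD8 heterodimer, read 68.2 and 64.3 in the anti-CD3 wells, 41.8 and 30.7 in the B7-2 wells and 86.4 and 91.9 in the BTNL2 wells and did not pass (adjusted p = 0.0702). With only the 4 anti-CD3 and BTNL2 arrays in the fit, with 16 added before log2 and with a variance prior that follows intensity, Cd8b1 was called higher (adjusted p = 0.0188, 0.0399 and 0.0475). Eomes made up part of that sum; Crtam, an adhesion receptor of cytotoxic cells, rose 3.93-fold, and the lectin receptors Klrk1, which encodes NKG2D, and Klrc1 3.63-fold and 2.84-fold. The NK cell markers Ncr1, Klra1 and Klrc2 lay at or below the array medians on all 4 arrays. The gamma-delta and innate-like markers summed to 90.4 to 94.3 in the anti-CD3 wells and 744 to 955 in the BTNL2 wells, of which Trgv1 read 875 and 673; Zbtb16 rose as well, and the other 3 of the 5 members did not pass. Of the CD4 T cell markers 6 of 12 fell, as given above. The part of such cells in the rise of cytotoxic genes was not tested. When the probe sets of a gene were averaged, the log2 change was 0.81 for Klrc1 and 0.58 for Zbtb16, the latter at 1.28 with the brightest probe set.

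Inhibitory and costimulatory receptor genes were lower in 12 of 24 and higher in 6. Lag3, which encodes an inhibitory receptor for MHC class II, read 1581 and 1675 in the anti-CD3 wells, 969.96 and 891 in the B7-2 wells and 226 and 348 in the BTNL2 wells. Each group was separate, with the BTNL2 arrays lowest, and the fall was 5.80-fold (log2 change -2.54 ± 0.19, adjusted p = 1.25e-04). Cd28, the receptor of B7-2 itself, read 1665 and 1548 in the anti-CD3 wells, 963 and 1059.9 in the B7-2 wells and 628 and 574 in the BTNL2 wells and fell 2.67-fold (log2 change -1.42 ± 0.10, adjusted p = 9.97e-05). Cd5, an inhibitor of receptor signalling, fell 2.02-fold, Slamf1 1.93-fold, and Lair1, an inhibitory collagen receptor gene, 2.74-fold. In the other direction Cd96 and Cd160, both receptors shared with NK cells, read 221 and 228 in the anti-CD3 wells against 1051 and 906 in the BTNL2 wells and 39.04 and 49.03 in the anti-CD3 wells against 186 and 183 in the BTNL2 wells and rose 4.34-fold and 4.22-fold. Icosl, the ligand of ICOS, read 24.2 and 17.1 in the anti-CD3 wells against 248 and 191 in the BTNL2 wells and rose 10.7-fold (log2 change 3.42 ± 0.23, adjusted p = 8.57e-05). Cd274, which encodes PD-L1, rose 1.84-fold. Btnl2 itself did not pass (adjusted p = 0.669), at 7.84 and 6.84 in the anti-CD3 wells against 7 and 6.93 in the BTNL2 wells; the BTNL2 of the wells was added as protein. With the mean of each gene's probe sets in place of the brightest, the log2 change was 1.64 for Icosl. With 16 added to each intensity before log2, which shrinks changes of dim genes, the log2 change was 2.68 for Icosl.

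In the TNF superfamily 8 of 21 genes rose and 5 fell. Tnfsf11, which encodes RANKL, the ligand that drives osteoclast formation, read 64.3 and 54.3 in the anti-CD3 wells, 247 and 261 in the B7-2 wells and 835 and 698 in the BTNL2 wells and rose 12.9-fold (log2 change 3.69 ± 0.13, adjusted p = 8.56e-06). Tnfrsf1b, which encodes TNF receptor 2, rose 2.35-fold, Cd70, the ligand of CD27, 2.15-fold, and Tnfsf10, which encodes TRAIL, 2.05-fold. Tnfsf14, which encodes LIGHT, fell 2.08-fold. Averaging the probe sets of a gene gave a log2 change of 2.03 for Tnfsf11. Adding 16 to the intensities before log2 shrank the log2 change to 0.50 for Cd70.

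Genes of the T cell receptor complex and its proximal signalling were called in both directions, 7 of 23 higher and 10 lower. Txk, a Tec-family kinase gene, read 17.6 and 19.4 in the anti-CD3 wells, 13.9 and 10.6 in the B7-2 wells and 81.4 and 71.7 in the BTNL2 wells and rose 4.14-fold (log2 change 2.05 ± 0.15, adjusted p = 1.03e-04), and Rasgrp1, which links the receptor to Ras, rose 2.01-fold. Cd3g fell 1.63-fold; Cd3e did not pass (log2 change -0.17, adjusted p = 0.306). Ubash3b, a phosphatase that limits receptor signalling, fell 2.33-fold. Of the genes induced early by the receptor, 7 of 23 rose and 9 fell. Nr4a3, an orphan nuclear receptor gene, read 161 and 186 in the anti-CD3 wells, 319.9 and 319 in the B7-2 wells and 1509.7 and 1216 in the BTNL2 wells and rose 7.82-fold (log2 change 2.97 ± 0.13, adjusted p = 1.66e-05), while Nr4a2 fell 2.32-fold. Fosl2, which encodes the AP-1 subunit Fra-2, read 1179 and 1096 in the anti-CD3 wells, 647 and 689 in the B7-2 wells and 134 and 178 in the BTNL2 wells and fell 7.35-fold (log2 change -2.88 ± 0.14, adjusted p = 2.62e-05). The Ras pathway inhibitor gene Spry1 fell 1.82-fold, and Egr1 and Egr2, zinc finger factors of receptor signalling, 1.73-fold and 1.59-fold. The mean over probe sets, in place of the brightest, put the log2 change at 0.96 for Nr4a3 and -0.64 for Nr4a2. After 16 was added to each intensity, the log2 change was 1.42 for Txk.

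Interferon-stimulated genes, the antiviral products that STAT and IRF factors induce, were higher in 21 of 32 members and lower in 2, with a median log2 change of 0.47; in the B7-2 wells against the same controls the median was -0.43. Type I interferon acts through ISGF3 on an element with the letters GAAA, any 2 bases and GAAA again, and this motif was searched on both strands of the RefSeq promoters (250 bases before to 50 after the start, GRCm38.p6), which were matched for 13605 of the tested genes. It occurred in 3.59% of those promoters, in 9 of 17 matched list members that rose and in 1 of 3 that did not pass. The stretches below show it, in capitals on the strand of the gene, for members that rose, followed by those of 3 guanylate-binding and immunity-related GTPase genes that did not rise. A match is a description of letters and not a bound site.
Ifit1 (chr19:34640764-34640853, + strand): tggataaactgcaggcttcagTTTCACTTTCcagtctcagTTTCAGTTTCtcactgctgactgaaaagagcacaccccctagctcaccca
Ifit3 (chr19:34583367-34583456, + strand): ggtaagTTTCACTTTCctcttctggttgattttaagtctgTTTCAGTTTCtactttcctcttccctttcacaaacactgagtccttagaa
Rsad2 (chr12:26456523-26456612, - strand): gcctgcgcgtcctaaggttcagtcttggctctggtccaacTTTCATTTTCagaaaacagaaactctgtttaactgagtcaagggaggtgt
Ifi205 (chr1:174031840-174031929, - strand): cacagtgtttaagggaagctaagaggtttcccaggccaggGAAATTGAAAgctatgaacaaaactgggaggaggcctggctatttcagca
Gbp2 (chr3:142620564-142620653, + strand): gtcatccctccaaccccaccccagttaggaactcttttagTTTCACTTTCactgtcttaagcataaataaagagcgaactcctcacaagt
Gbp3 (chr3:142559954-142560043, + strand): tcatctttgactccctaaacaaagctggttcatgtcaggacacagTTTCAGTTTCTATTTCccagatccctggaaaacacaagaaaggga
Igtp (chr11:58199466-58199555, + strand): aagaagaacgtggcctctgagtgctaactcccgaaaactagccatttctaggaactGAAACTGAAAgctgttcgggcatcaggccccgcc

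Ifit1, whose product binds foreign RNA caps, read 21.2 and 11.3 in the anti-CD3 wells, 15.9 and 13.8 in the B7-2 wells and 481 and 358 in the BTNL2 wells. The BTNL2 arrays were above the other 4, which overlapped among themselves, and the rise was 26.8-fold (log2 change 4.74 ± 0.29, adjusted p = 5.72e-05). Ifit3, its partner, read 18.2 and 19.96 in the anti-CD3 wells, 15.8 and 11.8 in the B7-2 wells and 447 and 327 in the BTNL2 wells and rose 20.05-fold (log2 change 4.33 ± 0.19, adjusted p = 1.66e-05); Rsad2, which encodes viperin, read 20.2 and 20.8 in the anti-CD3 wells against 131 and 76.5 in the BTNL2 wells and rose 4.88-fold (log2 change 2.29 ± 0.24, adjusted p = 5.32e-04). Rtp4, Oasl2 and Ifit1bl1 rose 26.5-fold, 18.3-fold and 26.3-fold. The DNA-sensing p200 family genes Ifi203 and Ifi205 read 6.94 and 7.78 in the anti-CD3 wells against 149 and 96.5 in the BTNL2 wells and 90.2 and 90.8 in the anti-CD3 wells against 1521 and 1159.6 in the BTNL2 wells, rising 16.3-fold and 14.7-fold, and their copies may share probes. Isg20, an exonuclease gene, rose 6.88-fold, Xaf1 2.87-fold, and Irf7, the factor that amplifies interferon transcription, 2.84-fold. Ifitm3, which blocks viral entry, stood among the 5 largest rises on the linear scale, at 222 and 234 in the anti-CD3 wells, 1072 and 998 in the B7-2 wells and 3141 and 2172 in the BTNL2 wells, up 11.5-fold (log2 change 3.52 ± 0.17, adjusted p = 2.42e-05). Not every member followed: Mx1 read 64.5 and 83.7 in the anti-CD3 wells against 55.9 and 90.7 in the BTNL2 wells with a log2 change of -0.046 (adjusted p = 0.916), and Samhd1, which depletes nucleotides, fell 2.32-fold. When the probe sets of a gene were averaged, the log2 change was 1.16 for Rsad2, 2.73 for Rtp4 and 2.14 for Ifi203. With 16 added to each intensity before log2, which shrinks changes of dim genes, the log2 change was 3.76 for Ifit1, 3.51 for Ifit3, 1.68 for Rsad2, 3.28 for Rtp4, 2.75 for Oasl2, 3.26 for Ifit1bl1 and 2.55 for Ifi203.

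The guanylate-binding proteins and immunity-related GTPases, which interferon gamma induces, were a contrast to the list above. Here 2 of 11 rose and 1 fell, close to or below the 14.2% and 16.2% of all genes, and the median was -0.0095; in the B7-2 wells it was -1.02, with 9 of 11 lower. Of 8 members with a promoter 7 held the motif, including 5 of 5 that did not pass. Gbp2 read 2875 and 2951 in the anti-CD3 wells, 505 and 538 in the B7-2 wells and 1472 and 1444 in the BTNL2 wells, so the BTNL2 arrays lay between, and fell 1.998-fold (log2 change -0.998 ± 0.086, adjusted p = 2.25e-04). Gbp7 rose 1.81-fold. Gbp3 read 818 and 834 in the anti-CD3 wells, 199 and 213 in the B7-2 wells and 749 and 632 in the BTNL2 wells and Igtp 3215 and 3102 in the anti-CD3 wells, 2435 and 2579 in the B7-2 wells and 3301 and 2982 in the BTNL2 wells; neither passed against anti-CD3 alone (adjusted p = 0.118 and 0.959), although Gbp3 was called lower with a variance prior that follows intensity (adjusted p = 0.0335).

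**Figure D4:**
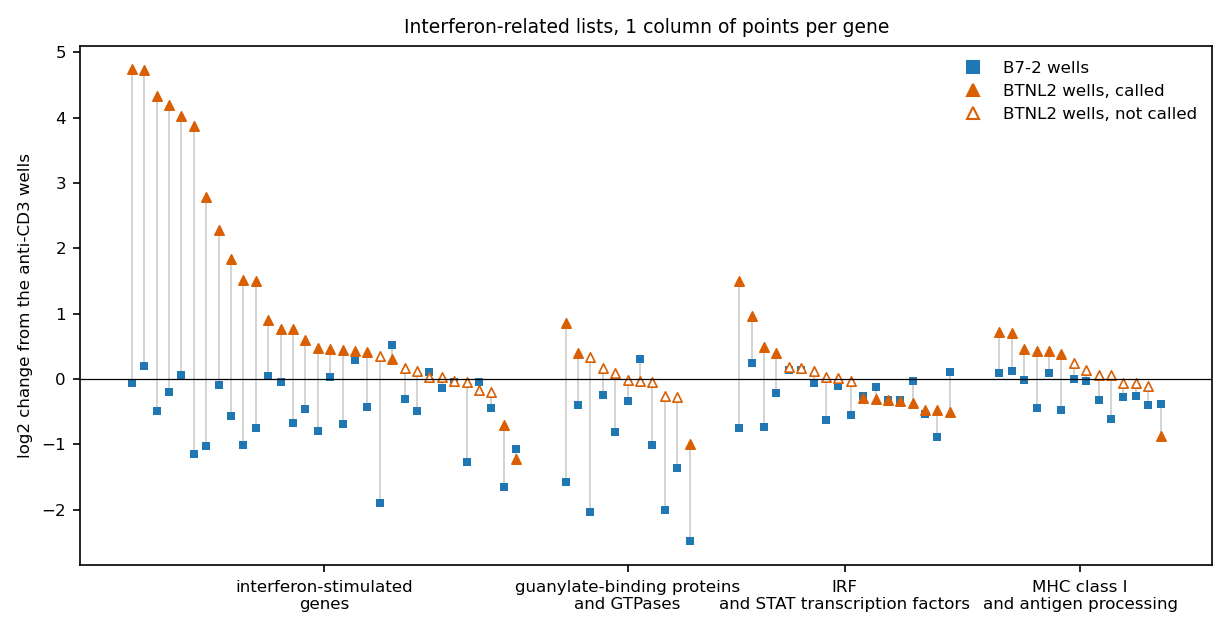
Log2 change from the anti-CD3 wells for every measured gene of 4 lists, in the BTNL2 wells (triangles, filled where called) and in the B7-2 wells (squares); each value compares means of 2 arrays and both share the anti-CD3 arrays. Interferon-stimulated genes reach 4.74 in the BTNL2 wells, while guanylate-binding proteins and GTPases lie around 0 there and lower in the B7-2 wells.

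Among IRF and STAT factors 4 of 18 rose and 8 fell. Irf8, a factor of myeloid cells also induced in activated T cells, rose 1.96-fold, and Socs3, a feedback inhibitor of STAT signalling, fell 1.42-fold. In MHC class I presentation 6 of 14 genes rose and 1 fell: the immunoproteasome subunit gene Psmb10 and the peptide-trimming enzyme gene Erap1 rose 1.65-fold and 1.64-fold, and H2-T23, which encodes Qa-1, fell 1.83-fold. The class II gene H2-Ab1 read 2395 and 2074 in the anti-CD3 wells against 621 and 939 in the BTNL2 wells and fell 2.92-fold; it stands on the B cell and dendritic cell marker lists, and the part of such cells was not tested.

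Genes of naive and resting T cells gave 5 of 19 higher and 5 lower. Klf3, a Krüppel-like repressor gene, read 37.7 and 40.6 in the anti-CD3 wells, 14.6 and 14.2 in the B7-2 wells and 277 and 157 in the BTNL2 wells and rose 5.32-fold (log2 change 2.41 ± 0.24, adjusted p = 3.87e-04), and Nsg2 rose 3.54-fold. Rgs10, a regulator of G protein signalling, fell 2.66-fold, Tob1, an antiproliferative gene, 1.96-fold, and Bach2, a repressor of effector differentiation, 1.80-fold. Slfn1, a schlafen gene of quiescent T cells, read 1372 and 1298 in the anti-CD3 wells, 135 and 136 in the B7-2 wells and 1449.6 and 1044 in the BTNL2 wells: the anti-CD3 and BTNL2 arrays overlapped and the B7-2 arrays were low (BTNL2 against anti-CD3: adjusted p = 0.634). Klf2, which keeps homing receptors on, read 36.5 and 33.1 in the anti-CD3 wells, 22.8 and 30.2 in the B7-2 wells and 55.5 and 53.6 in the BTNL2 wells and rose 1.57-fold; the call was lost without the second anti-CD3 array and without the first BTNL2 array (adjusted p up to 0.0751). FOXO-dependent genes fell in 8 of 14 and rose in 2, with a median of -0.58. In the B7-2 wells against the same controls 9 were lower and 2 higher, with a median of -0.90. The growth arrest gene Gadd45a and the mitophagy receptor gene Bnip3l fell 3.43-fold and 3.61-fold, and Sesn3 and Ccng2 2.54-fold and 2.08-fold. Bcl2l11, which encodes the death inducer BIM, read 419 and 442 in the anti-CD3 wells and 863 and 683 in the BTNL2 wells and rose 1.78-fold. Its B7-2 arrays were lowest, at 114 and 107. Foxo1 itself did not pass (log2 change -0.027, adjusted p = 0.933). With the mean of each gene's probe sets in place of the brightest, the log2 change was 1.14 for Klf3, -0.42 for Tob1 and -0.56 for Ccng2.

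All wells received TGF-beta, and 7 of 24 pathway genes rose (29.2%) while 3 fell (12.5%). Of all genes 14.2% rose and 16.2% fell, so the share that fell was not above that of all genes. Smad7, the inhibitory SMAD that the pathway induces, rose 2.77-fold, and Ldlrad4, another inhibitor of SMAD activation, read 26.2 and 24.4 in the anti-CD3 wells against 213 and 219 in the BTNL2 wells and rose 8.53-fold. The receptor gene Tgfbr1 read 596 and 528 in the anti-CD3 wells, 334 and 363 in the B7-2 wells and 1335 and 1109 in the BTNL2 wells and rose 2.17-fold (log2 change 1.12 ± 0.12, adjusted p = 6.17e-04). On the ligand side Inhba, which encodes the activin A subunit, read 91.4 and 87.6 in the anti-CD3 wells, 333 and 358 in the B7-2 wells and 11.1 and 10.3 in the BTNL2 wells. It was highest in the B7-2 wells and lowest in the BTNL2 wells, and fell 8.38-fold (log2 change -3.07 ± 0.093, adjusted p = 6.24e-06). Of 20 integrin and adhesion genes 8 rose and 5 fell; besides Cdh1, Itga6 rose 1.86-fold and Icam2 1.62-fold, while Itgb7, the chain that pairs with the gut-homing integrins, fell 1.48-fold. Averaging the probe sets of a gene gave a log2 change of 2.17 for Ldlrad4 and -1.56 for Inhba. Adding 16 to the intensities before log2 shrank the log2 change to 2.49 for Ldlrad4 and -1.98 for Inhba.

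Glycolysis and hypoxia genes were mostly lower: 21 of 30 fell and 3 rose, with a median log2 change of -0.78. In the B7-2 wells against the same controls the median was -0.04, with 5 higher and 5 lower. HIF-1 binds a short core, ACGTG, upstream of many of these genes. The core occurred on either strand in 26.1% of all matched promoters, in 15 of 19 matched list members that fell, in 4 of 6 that did not pass and in 2 of 3 that rose. Stretches that hold it are given, with the core in capitals, for 4 genes that fell and for Ldha, which did not pass; where cores on both strands overlap they read CACGTG.
P4ha2 (chr11:54100803-54100892, + strand): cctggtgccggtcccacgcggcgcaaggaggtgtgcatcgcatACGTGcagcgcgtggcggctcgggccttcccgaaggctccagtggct
Slc16a3 (chr11:120948977-120949066, + strand): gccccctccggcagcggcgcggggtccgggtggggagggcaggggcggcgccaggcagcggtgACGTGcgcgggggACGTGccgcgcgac
Ero1a (chr14:45318589-45318678, - strand): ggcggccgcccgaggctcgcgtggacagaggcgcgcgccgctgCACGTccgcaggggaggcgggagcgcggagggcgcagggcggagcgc
Bnip3 (chr7:138909567-138909656, - strand): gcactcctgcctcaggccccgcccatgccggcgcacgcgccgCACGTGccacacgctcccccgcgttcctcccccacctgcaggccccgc
Ldha (chr7:46845714-46845803, + strand): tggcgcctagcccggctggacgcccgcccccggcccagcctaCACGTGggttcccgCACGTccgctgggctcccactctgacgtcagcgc

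Aldoc, a brain isoform of the glycolytic enzyme aldolase, read 1229 and 1270.5 in the anti-CD3 wells, 413 and 358 in the B7-2 wells and 28.2 and 54.7 in the BTNL2 wells, stepwise lower over the 3 groups, and fell 31.8-fold (log2 change -4.99 ± 0.27, adjusted p = 3.92e-05). Slc2a3, which encodes the glucose transporter GLUT3, read 4164 and 4132 in the anti-CD3 wells, 2916 and 3025 in the B7-2 wells and 563 and 787 in the BTNL2 wells and fell 6.23-fold (log2 change -2.64 ± 0.15, adjusted p = 5.05e-05); Slc2a1, which encodes GLUT1, did not pass (log2 change 0.047, adjusted p = 0.806). P4ha2, a collagen prolyl hydroxylase gene induced by hypoxia, read 91.6 and 92.2 in the anti-CD3 wells, 63.05 and 56.1 in the B7-2 wells and 12.6 and 20.3 in the BTNL2 wells and fell 5.74-fold (log2 change -2.52 ± 0.21, adjusted p = 1.83e-04). Ndrg1, a stress gene of hypoxic cells, fell 6.47-fold, and Ero1a, an oxidase of protein folding, read 4781 and 4855 in the anti-CD3 wells, 4936 and 4676 in the B7-2 wells and 1536 and 1726 in the BTNL2 wells and fell 2.96-fold. The lactate exporter gene Slc16a3 read 965 and 1074 in the anti-CD3 wells against 227 and 522 in the BTNL2 wells and fell 2.96-fold, with an adjusted p of 0.064 without the second anti-CD3 array. Hif1a itself fell 1.62-fold, the oxygen-sensing hydroxylase genes Egln1 and Egln3 1.89-fold and 2.72-fold, the mitophagy gene Bnip3 2.03-fold and Vegfa 2.14-fold. The hexokinase gene Hk1 fell 2.31-fold and Pdk1, which keeps pyruvate out of mitochondria, 1.81-fold. The glycolytic enzyme genes Ldha and Gapdh did not pass (log2 change -0.089 and -0.078, adjusted p = 0.519 and 0.555). The mean over probe sets, in place of the brightest, put the log2 change at -3.72 for Aldoc. After 16 was added to each intensity, the log2 change was -1.74 for P4ha2. The log2 change of Slc16a3 was -0.96 without the first BTNL2 array and -2.17 without the second BTNL2 array.

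**Figure D5:**
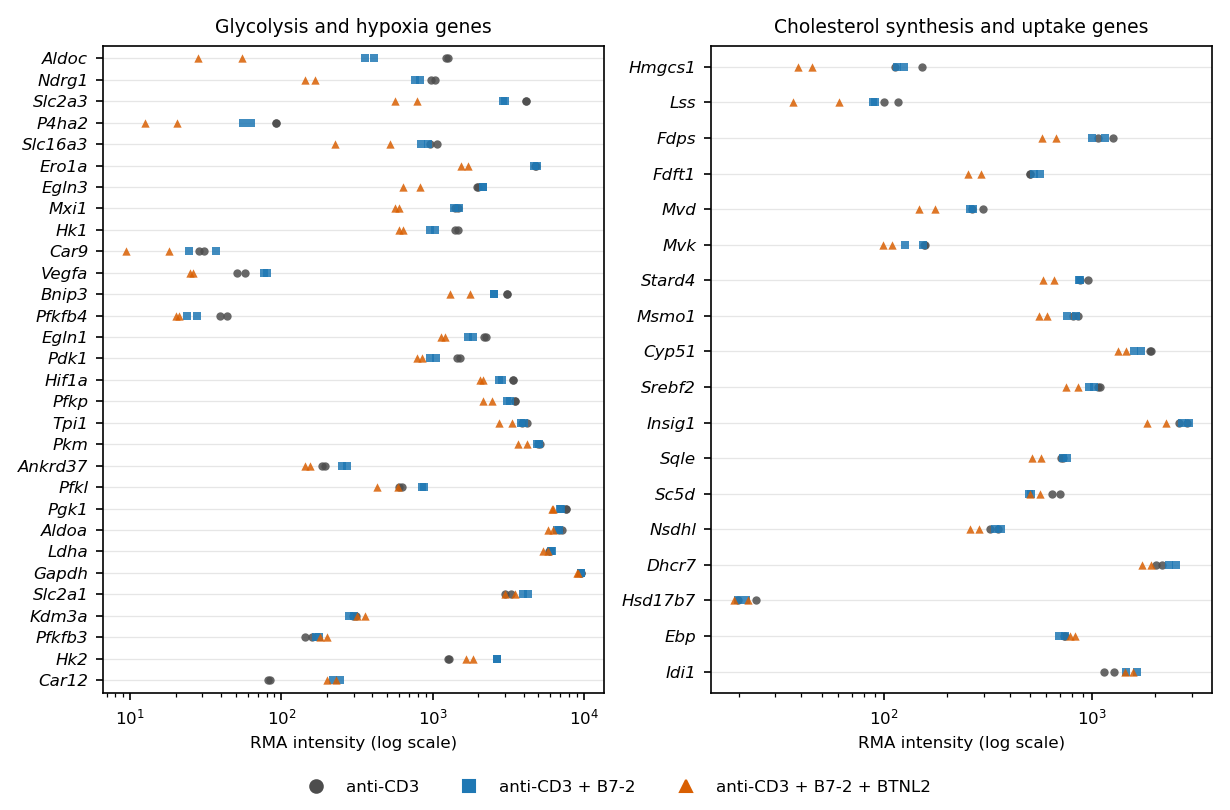
Intensity on each array (log axis) for every measured glycolysis and hypoxia gene (left) and cholesterol gene (right), ordered by the log2 change of the BTNL2 wells against the anti-CD3 wells; each point is 1 of 2 arrays per group. Aldoc lies at 1229 and 1270.5 in the anti-CD3 wells and at 28.2 and 54.7 in the BTNL2 wells, whereas the anti-CD3 and BTNL2 values of Ldha (5881 and 5967, 5381 and 5765) lie close together.

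Cholesterol synthesis and uptake genes fell in 13 of 18 members and rose in 0 by limma's test, with a median of -0.45; at an unadjusted p of 0.05 1 was higher. The count depended on single arrays, at 8 without either anti-CD3 array and 7 without the first BTNL2 array. Hmgcs1, which makes the substrate of the rate-limiting step, read 112 and 152 in the anti-CD3 wells, 124 and 115 in the B7-2 wells and 38.7 and 44.9 in the BTNL2 wells and fell 3.13-fold (log2 change -1.65 ± 0.16, adjusted p = 3.36e-04). Lss, which closes the sterol ring, fell 2.28-fold, Fdps 1.87-fold, Fdft1 1.84-fold and Mvd 1.75-fold. The B7-2 arrays of Lss read 90.8 and 88.7 against 116 and 99.3 on the anti-CD3 arrays.

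Amino acid response genes, targets of ATF4, fell in 10 of 26 and rose in 5, with a median of -0.12; in the B7-2 wells the median was 0.72, with 19 higher and 1 lower. Slc7a3, a transporter of cationic amino acids, read 141 and 123 in the anti-CD3 wells, 331 and 363 in the B7-2 wells and 13.5 and 17.7 in the BTNL2 wells and fell 8.51-fold (log2 change -3.09 ± 0.15, adjusted p = 2.41e-05). Asns, which makes asparagine, read 1756 and 1839 in the anti-CD3 wells, 2837 and 2722 in the B7-2 wells and 549 and 626 in the BTNL2 wells: the BTNL2 arrays were below both other groups and the fall was 3.07-fold (log2 change -1.62 ± 0.10, adjusted p = 5.84e-05). Cth, an enzyme of cysteine synthesis, fell 3.48-fold, and the lipoprotein receptor gene Vldlr 10.3-fold. Phgdh, the first enzyme of serine synthesis, rose 1.62-fold, and Atf4 did not pass (adjusted p = 0.565). Of 17 tRNA synthetase genes 8 rose and 2 fell, with a median of 0.26, and Eprs rose 1.51-fold. In the B7-2 wells 14 of these genes were higher and 0 lower, with a median of 0.55. When the probe sets of a gene were averaged, the log2 change was -2.59 for Vldlr. With 16 added to each intensity before log2, which shrinks changes of dim genes, the log2 change was -2.23 for Slc7a3, -0.93 for Cth and -2.22 for Vldlr.

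Ribosome biogenesis genes rose most uniformly: 24 of 27 were higher and 0 lower by limma's test, with a median of 0.66, and in the B7-2 wells 25 were higher with a median of 0.70. At an unadjusted p of 0.05, 0 were lower. Ncl, which encodes nucleolin, read 65.3 and 69.7 in the anti-CD3 wells, 125 and 127 in the B7-2 wells and 235 and 267 in the BTNL2 wells and rose 3.71-fold (log2 change 1.89 ± 0.10, adjusted p = 3.32e-05). Utp20, a processing factor of the small subunit, rose 2.57-fold, Dkc1, which encodes the pseudouridine synthase dyskerin, 2.52-fold, and Polr1b, a subunit of RNA polymerase I, read 85.1 and 80.2 in the anti-CD3 wells against 172 and 185 in the BTNL2 wells and rose 2.16-fold.

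DNA replication genes were higher in 27 of 35 and lower in 1, with a median of 0.44; 15 were higher without the first anti-CD3 array and 16 without the second BTNL2 array. In the B7-2 wells against the same controls 25 DNA replication genes were higher and 0 lower, with a median of 0.46. Rrm2, the regulated subunit of ribonucleotide reductase, read 362 and 355 in the anti-CD3 wells, 732 and 676 in the B7-2 wells and 749 and 746 in the BTNL2 wells and rose 2.08-fold (log2 change 1.06 ± 0.088, adjusted p = 1.93e-04), and Tyms, which makes thymidylate, rose 1.92-fold. Mitosis genes were higher in 15 of 28 and lower in 0 by limma's test (at an unadjusted p of 0.05, 1 lower), with a median of 0.34, and 9, 5 and 6 were higher without the first anti-CD3, the second anti-CD3 and the second BTNL2 array. Plk1, the mitotic kinase gene, read 166 and 157 in the anti-CD3 wells, 220.3 and 214 in the B7-2 wells and 276 and 298 in the BTNL2 wells and rose 1.78-fold, and Cdc20, an activator of the anaphase-promoting complex, rose 1.71-fold. Mki67, the common proliferation marker, read 1556 and 1699 in the anti-CD3 wells against 1823 and 1988 in the BTNL2 wells, and Myc, which drives growth, 133 and 92.4 in the anti-CD3 wells against 95.3 and 109 in the BTNL2 wells; neither passed (adjusted p = 0.126 and 0.731). Mki67 was called higher with a variance prior that follows intensity and with 16 added before log2 (adjusted p = 0.0099 and 0.0477). Of 27 respiratory chain genes 3 rose and 0 fell by limma's test, a share of higher members near that of all genes; 2 were lower at an unadjusted p of 0.05.

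Genes of heat shock and the unfolded protein response rose in 12 of 23 and fell in 1, with a median of 0.32. In the B7-2 wells against the same controls 11 were higher and 1 lower, with a median of 0.35. Pdia3 and Sdf2l1, folding factors of the endoplasmic reticulum, rose 2.10-fold and 1.99-fold, and the chaperone gene Hsp90aa1 1.81-fold. The member that fell was Hspa1b, which encodes an inducible HSP70, at 353 and 162 in the anti-CD3 wells against 47.6 and 61.7 in the BTNL2 wells, a difference of 4.42-fold (log2 change -2.14 ± 0.33, adjusted p = 0.0025). Hspa5, which encodes the sensor chaperone BiP, did not pass (log2 change 0.12, adjusted p = 0.355). Of 19 p53 response genes 9 rose and 5 fell; Sesn2, also a target of ATF4, rose 1.80-fold, and Gtse1 1.85-fold. Of 20 cell death regulators 5 rose (25%) and 3 fell (15%), where 14.2% and 16.2% of all genes did, so the share that fell was near that of all genes. The inflammatory caspase gene Casp4 fell 1.87-fold. With the mean of each gene's probe sets in place of the brightest, the log2 change was -0.96 for Hspa1b.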

How the data were processed

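The 6 arrays hold RNA of 6 cultures, 2 per coating. The total RNA, 50 ng per sample, was amplified with a NuGen Ovation system per the labels' protocols, a step that can alter how strongly transcripts read relative to each other. The authors deposited 1 linear intensity per probe set and array, made with RMA per the submitters' processing notes. Its version is not given in the sources used here. Since RMA forces all arrays to 1 distribution, a shift shared by most transcripts is lost. Intensities have no read depth, and the number of arrays limits the precision. Nonspecific control probe sets read up to 5.27 on the 4 arrays of the comparison. For 21 called genes both arrays of at least 1 group lay at or under that level, so their fitted folds are not exact.

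The linear intensities were log2 transformed. Of 45141 probe sets, 28898 had 1 gene symbol, 551 several and 15588 none here, and 104 were controls; symbols of 28689 were updated by Entrez identifier with the GRCm38.p6 gene table. Each of 17097 genes was represented by its brightest probe set over all arrays, with no filter on dim genes. Of the called genes 23 (0.443%) had probe sets called in opposite directions, and 317 were called with both group means below the median probe set. Differences were fitted by lmFit and eBayes of limma 3.58.1 under R 4.3.3, all 6 arrays in 1 fit without a block for replicate number, with 3 residual and 4.02 prior degrees of freedom. Calls rest on two-sided p-values, adjusted over the 17097 genes by Benjamini-Hochberg, with 0.05 as the limit, and folds are the antilog of the log2 changes. The procedure was also run on simulated data with independent noise for each gene and array. Such data cannot show whether the duplicates here are technical, and no result rests on that run.

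The comparison and the 45 gene lists (743 of 879 genes measured) were chosen with earlier results of these data known. Named were the 15 largest rises and falls among called genes above the median probe set in their higher group, the 5 largest changes of each direction on the linear scale, up to 4 members per list, taken by p, members in order of role where a pathway is described, and a set followed throughout. Symbols of predicted genes, clones and unnamed cDNAs were left out of these rankings. Not every gene that the rule allows is described. Samples with the same replicate number did not deviate together (r across genes = -0.000967 between the anti-CD3 and BTNL2 groups). With 2 arrays a group this value cannot decide whether the numbers pair them. Promoter letters are those of RefSeq, GRCm38.p6; the deposited table names no genome build.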

Additional observations from a re-analysis of the deposited data

Results flagged for a closer look

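Signal was also present outside the named genes. Of 16139 probe sets that the platform annotation gives no gene symbol or several, 1432 were called higher and 1183 lower in the BTNL2 wells than in the anti-CD3 wells, which is 16.2% of them. This is a smaller share than the 30.4% called among the 17097 genes tested. The p-values of these probe sets were adjusted over all probe sets and those of the genes over the genes. Of the 16139 probe sets, 18 were called higher and 72 lower by at least 4-fold. The one with the largest rise read 29.0 and 36.6 in the anti-CD3 wells, 16.9 and 23.1 in the B7-2 wells and 815 and 577 in the BTNL2 wells, and the one with the largest fall read 517 and 479 in the anti-CD3 wells, 82.3 and 73.3 in the B7-2 wells and 15.4 and 14.9 in the BTNL2 wells. They are unnamed here, and what they measure was not analysed.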

How the results depend on the processing

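The count of called genes, 5197, ranged from 4827 to 5927 over the alternatives that kept all arrays (5801 genes with at least 1 called probe set where each was tested) and from 3726 to 4250 when an array was left out; 43.7% to 49.0% of the calls were higher, and 46.6% in the reported fit. None of these moved the counts of the 12 leading lists by over 1.5 times except leaving out an array: the ranges were then 6 to 11 for cytotoxic genes called higher, 7 to 12 for cholesterol genes called lower, 15 to 22 for DNA replication and 5 to 12 for mitosis genes called higher. With 1 array in a group its spread is assumed to be that of the other groups. Of 219 named genes 20 changed call or sign under any alternative and 8 with the 4 arrays of the comparison kept. The genes whose sign turned were not called in the reported fit. Over the fits that leave out 1 array their log2 changes ranged from -0.17 to 0.026 for Btnl2, -0.22 to 0.17 for Foxo1, -0.083 to 0.064 for Igtp, -0.51 to 0.26 for Il5, -0.39 to 0.30 for Mx1, -0.38 to 0.14 for Myc, -0.064 to 0.16 for Slc2a1 and -0.35 to 0.12 for Slfn1. Without the first anti-CD3 array the sign turned for Btnl2, Foxo1, Igtp and Myc, without the second for Mx1 and Slc2a1, without the first BTNL2 array for Foxo1, Il5 and Mx1, and without the second for Igtp, Slc2a1 and Slfn1. The cause was not tested. With the replicate number as a block, 4827 genes were called, and of the named genes Il2 lost its call (adjusted p = 0.0544). Whether the numbers pair the samples is not known. Groups of 2 arrays and dim signal limit the precision of small changes, and log2 changes of dim genes shrink when 16 is added.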

Other observations

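Outside the gene lists several single genes differed as much as the list members; the genes of this section were picked after their values were seen. Among the rises, Nrarp, which encodes a feedback inhibitor of Notch signalling, read 35.2 and 28.98 in the anti-CD3 wells, 28.3 and 35.1 in the B7-2 wells and 539 and 357 in the BTNL2 wells and rose 13.7-fold (log2 change 3.78 ± 0.21, adjusted p = 4.14e-05). Hsd11b1, whose enzyme regenerates active glucocorticoid, read 34.6 and 35.6 in the anti-CD3 wells, 67.5 and 43.96 in the B7-2 wells and 695 and 408 in the BTNL2 wells and rose 15.2-fold. Ms4a4b, a membrane protein gene of T cells in the family of CD20, read 197 and 210.02 in the anti-CD3 wells, 69.6 and 62.3 in the B7-2 wells and 2384 and 2006 in the BTNL2 wells; the B7-2 arrays lay below and the BTNL2 arrays above the anti-CD3 arrays, with a rise of 10.8-fold. Ifi209, another p200 family gene that the interferon list did not hold, rose 15.6-fold, and Samd9l and Parp12, both interferon-induced, 6.07-fold and 5.95-fold. S100a4, a calcium-binding protein gene of memory T cells, rose 4.44-fold. Averaging the probe sets of a gene gave a log2 change of 3.15 for Nrarp and 2.15 for Ms4a4b. Adding 16 to the intensities before log2 shrank the log2 change to 3.21 for Ifi209.

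Among the falls, Upp1, which salvages uridine, read 862 and 972 in the anti-CD3 wells, 753 and 635 in the B7-2 wells and 63.5 and 67.1 in the BTNL2 wells and fell 14.02-fold (log2 change -3.81 ± 0.12, adjusted p = 6.24e-06). Smox, which oxidises the polyamine spermine, fell 12.7-fold, and Selp, which encodes the adhesion receptor P-selectin, 12.1-fold. Calcrl, a receptor of calcitonin-family peptides, read 1885 and 1798 in the anti-CD3 wells, 1138 and 1203 in the B7-2 wells and 241 and 301 in the BTNL2 wells and fell 6.83-fold. The syndecan gene Sdc4 fell 7.80-fold, the galectin gene Lgals7 8.63-fold, and the neighbouring armadillo repeat genes Armcx3 and Armcx6 8.71-fold and 14.4-fold. Pglyrp1, which encodes a peptidoglycan recognition protein, read 2595 and 2384 in the anti-CD3 wells, 252 and 248 in the B7-2 wells and 337 and 486 in the BTNL2 wells, so that the BTNL2 arrays were below the anti-CD3 arrays and above the B7-2 arrays, a fall of 6.15-fold from anti-CD3 alone. The mean over probe sets, in place of the brightest, put the log2 change at -1.75 for Calcrl and -2.21 for Sdc4.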
